A study of Macaca mulatta with 6 samples.

Results

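Genes named as cytochromes P450 of the CYP1, CYP2, CYP3 and CYP4 prefixes, UDP-glucuronosyltransferases (UGT1, UGT2), glutathione transferases (GST), sulfotransferases (SULT), aldehyde dehydrogenases (ALDH), flavin monooxygenases (FMO) and aldehyde oxidases (AOX) were followed in rhesus monkey tracheal tissue. They were chosen by the start of their symbol and by a summed count of 10 or more over 6 libraries. This gave 93 members of the 28536 genes counted. Another 8 symbols with these prefixes lay under that sum, among them CYP1A2 and both UGT2 genes (UGT2B20 and UGT2B23), so UGT2 had no member. The prefixes also took 12 sterol, vitamin and steroid hydroxylases from CYP11A1 to CYP46A1, which are described apart, and 2 genes outside these enzyme classes. These were FMOD, the matrix proteoglycan fibromodulin, and GSTCD, a protein with a glutathione transferase-like domain.

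The control group, 3 libraries, received normal saline. The Oxy@Lipo/Gel group, 3 libraries, received a tracheal lubricant coated with this material in a model of endotracheal intubation under general anesthesia. For the control animals the labels do not state intubation, and for both groups they give no age, strain or genotype. All libraries share 1 sampling day. The labels disagree on the material: the treatment text names tracheal tissue, the tissue entry reads lubricated catheter and the extraction protocol refers to cell lines. Replicates are called biosamples, with no word on separate animals, so a p-value here reflects only how these libraries vary, which may be technical in part.

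Enzymes of this kind act on foreign compounds and on the body's own steroids, retinoids and lipids. Phase I enzymes (P450s, flavin monooxygenases, aldehyde oxidases and aldehyde dehydrogenases) oxidise a substrate, and phase II enzymes (glutathione transferases, sulfotransferases and UDP-glucuronosyltransferases) attach a polar group to it. In the airway, secretory and ciliated epithelial cells are known for such enzymes, among them CYP2F1, CYP4B1, ALDH3A1 and GSTP1, which meet inhaled chemicals and aldehydes.

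Library totals ran from 17097177 to 23405294 counts, and 1 gene took 19.7% of control replicate 2 against 7.73% to 10.4% of the others. Airway markers were present in every library, with the multiciliated regulator FOXJ1 between 121 and 1024 CPM (counts relative to library size, scaled by the edgeR TMM factors). Of the 9 hepatocyte markers, ALB, the defining one, had 1 count over all libraries, APOA2 had 1 and FGA had 2. Others were present and higher in controls. APOA1 measured 3.87, 9.10 and 4.85 CPM in the control replicates and 1.16, 0.927 and 1.66 CPM in the others. It did not pass (edgeR adjusted p = 0.0645). TTR measured 0.696, 0 and 2.24 CPM against 0.0415, 0.169 and 0.268 CPM. CPS1 had 44 counts in control replicate 2, 0 in control replicates 1 and 3, and 0, 5 and 3 in the Oxy@Lipo/Gel replicates. The hepatocyte list summed to 324, 93.4 and 201 CPM in the control replicates and 1970.4, 1858 and 10825 CPM in the others. Most of this was TF (transferrin) and SERPINA1, which other tissues also express. Both had higher means in the Oxy@Lipo/Gel group. Libraries differed in their markers. The summed level of 9 multiciliated markers was 4471, 939 and 5434 CPM in control replicates 1, 2 and 3 and 4989.7, 4441 and 2258 CPM in the Oxy@Lipo/Gel replicates. For 6 basal-cell markers it was 6769.9, 11945 and 2258 CPM against 3768, 2002 and 3348 CPM. For 10 submucosal gland markers, 4 of which were called higher, it was 1467, 634 and 911 CPM against 12506, 9158 and 30417 CPM, and for 9 cartilage markers, 3 of them called higher, 57.0, 78.7 and 99.0 against 523, 447 and 256 CPM. The 6 thyroid markers summed to 5831 CPM in control replicate 3 and to 11.4 to 24.8 CPM elsewhere. In bulk tissue, fewer cells of a type and less RNA per cell cannot be told apart.

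The comparison of the groups asks how enzyme transcripts differ between the Oxy@Lipo/Gel libraries and the saline controls. Neither group received the lubricant without the material. The parts of the material, the lubricant and the intubation model therefore cannot be told apart. SULT1E1, CYP2A24 and CYP24A1 fell in the Oxy@Lipo/Gel libraries, and no member was called higher by edgeR. Of 80 members tested with edgeR, 3 were called lower, 0 higher and 77 did not pass an adjusted p of 0.05. Among all 18676 genes tested, 0.685% were called lower, 0.851% higher and 1.54% in either direction. At an unadjusted p under 0.05, 25 members were lower and 5 higher, beside 12.6% and 10.7% of all genes. DESeq2 called 18 members lower and 2 higher. By DESeq2 5.87% of all genes were lower and 7.47% higher. CYP2A24 and CYP24A1 reached 10 counts in control libraries only, so they entered the test through the group in which they were high. Leaving out 1 library at a time, edgeR called 0 members when the one left out was replicate 1 or 3 of the control group or replicate 2 or 3 of the Oxy@Lipo/Gel group. In 3 of these 4 fits it called 0 of all genes, with 3189, 4858 and 2271 genes at an unadjusted p under 0.05, and in the one that dropped Oxy@Lipo/Gel replicate 3 it called 20. CYP2A24 and SULT1E1 were called when control replicate 2 was dropped, and all 3 genes when Oxy@Lipo/Gel replicate 1 was.

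The median log2 fold change of the 80 members was -0.35, against -0.04 for all genes tested. Below 0 were 54 members (67.5%) and above 0 were 26, where 53.0% of all genes tested lay below 0. With median-of-ratios size factors 53 members lay below 0. The groups did not overlap for 23 members that were lower and 9 that were higher in the Oxy@Lipo/Gel libraries, where 17.7% and 12.2% of all tested genes did not overlap in these directions. Lower medians belonged to the CYP2, FMO, AOX, UGT1 and SULT genes, from -2.16 for AOX to -1.06 for CYP2. Those of AOX and UGT1 rest on 2 tested genes each. The medians of GST, CYP4, ALDH and the sterol hydroxylases lay between -0.40 and 0.10. CYP1 and CYP3, with 1 tested gene each, stood at 0.52 and 0.23. The SULT median was 0.54 without control replicate 3. In the plot of fold changes SULT1E1 and CYP2A24 stand apart from the rest. The SE bar of CYP24A1 (-3.76 ± 0.63) overlaps that of CYP2A26 (-2.86 ± 0.54), which was not called.

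**Figure D1:**
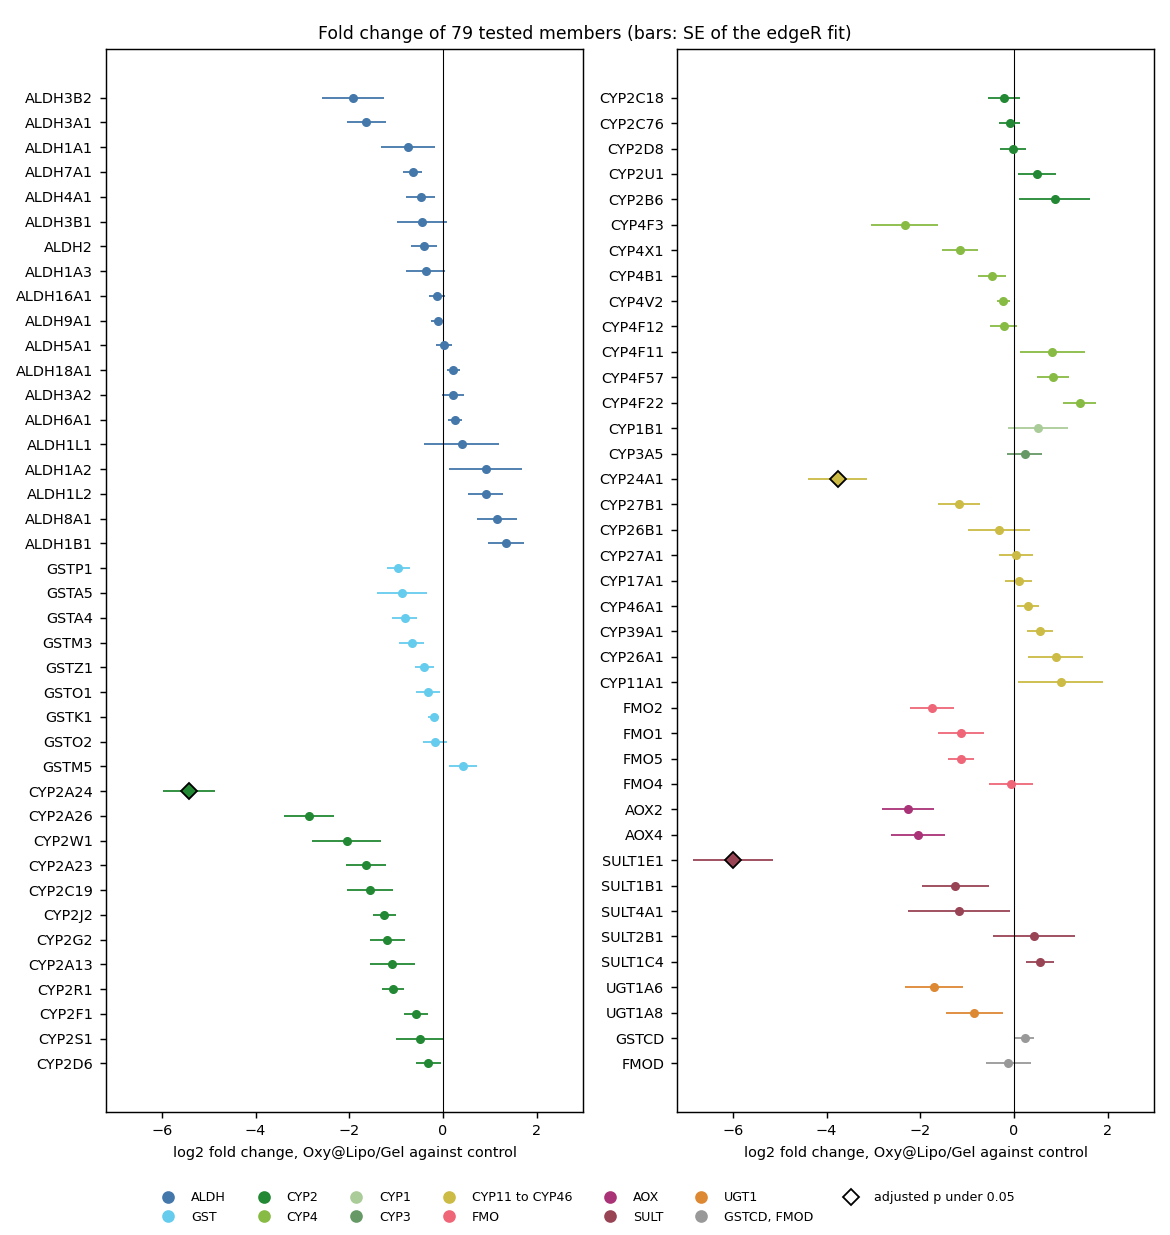
Log2 fold change of 79 tested members, Oxy@Lipo/Gel against control (x axis), by gene (y axis) and coloured by family; bars are the SE of the edgeR fit and diamonds mark an adjusted p under 0.05. SULT1E1, CYP2A24 and CYP24A1 lie at -5.99, -5.42 and -3.76, and the others did not pass.

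Levels were compared between genes per length, as FPKM (fragments counted, divided by the length of the gene and by library depth). ALDH3A1, which oxidises aromatic and lipid aldehydes, had the highest mean level of all members, 1489.8 ± 159.8 FPKM in the control group and 503 ± 229.7 FPKM in the Oxy@Lipo/Gel group (mean ± SD, n = 3 per group here and below). GSTP1, the main glutathione transferase of airway epithelium, followed with 1164 ± 223 and 618 ± 146 FPKM. ALDH1A1, a retinal dehydrogenase, had 739 ± 459 and 442 ± 209 FPKM. The control levels of ALDH1A1 and GSTP1 overlap within their SDs. Next came CYP4B1 with 240.3 ± 83.0 and 177 ± 58.7 FPKM, then GSTA5, ALDH2 and CYP2F1, each with a mean above 100 FPKM over the 6 libraries. In all, 7 members had a mean of 100 FPKM or more, 23 lay from 10 to 100, 29 from 1 to 10 and 34 under 1.

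All 93 members together took 1.27, 1.03 and 1.47% of the counts in control replicates 1, 2 and 3 and 0.902, 0.647 and 0.445% in the Oxy@Lipo/Gel replicates. The groups do not overlap in this share. ALDH3A1, GSTP1 and ALDH1A1 alone held 0.788, 0.579 and 0.991% and 0.497, 0.351 and 0.202%, which is most of the sum in every library but Oxy@Lipo/Gel replicate 3. Of the called genes, SULT1E1 stood at rank 23 of 93, CYP2A24 at rank 46 and CYP24A1 at rank 72 by mean FPKM.

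**Figure D2:**
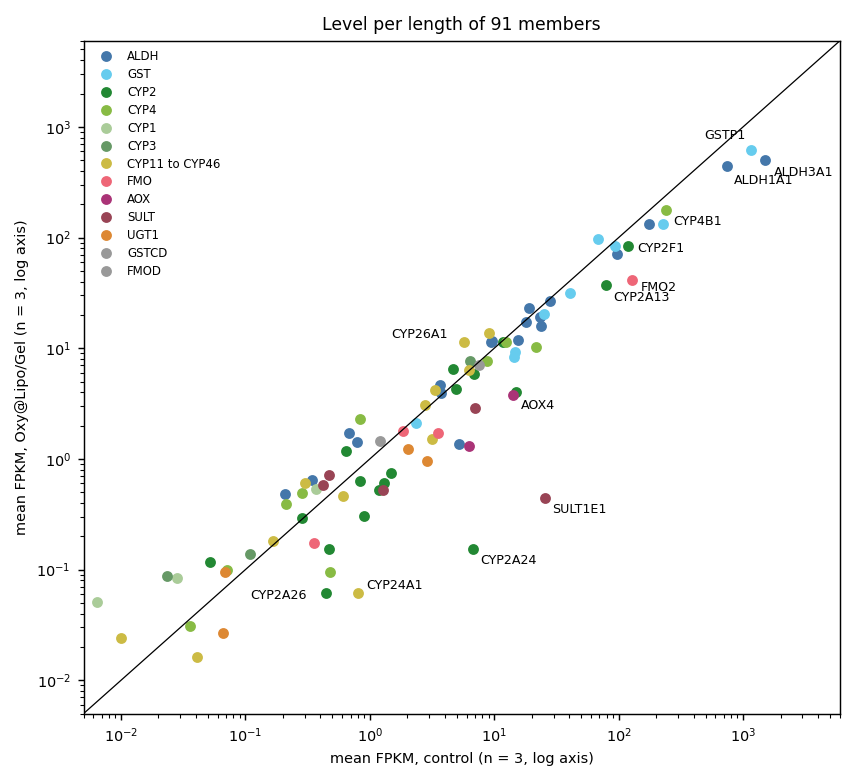
Mean FPKM of 91 members in the control group (x axis) and in the Oxy@Lipo/Gel group (y axis), n = 3 each, both axes logarithmic, coloured by family; the line marks equal levels. ALDH3A1, GSTP1 and ALDH1A1 stand at the top, and SULT1E1, CYP2A24 and CYP24A1 lie far under the line.

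Sulfotransferases transfer a sulfate group from the donor PAPS to hormones and phenols. SULT1E1, the oestrogen sulfotransferase, which inactivates oestradiol, measured 108, 236 and 29.2 CPM in control replicates 1, 2 and 3 and 2.74, 1.48 and 1.61 CPM in the Oxy@Lipo/Gel replicates. The groups lie far apart, although the control libraries also differ widely among themselves. SULT1E1 fell by 5.99 ± 0.85 as a log2 fold change (fit ± SE, edgeR adjusted p = 0.0344), and its log2 fold change stayed between -6.47 and -5.14 with any single library left out. SULT1E1 was highest in control replicate 2 and lowest of the controls in replicate 3, the order also seen for the summed basal-cell markers (6769.9, 11945 and 2258 CPM). In the Oxy@Lipo/Gel libraries these markers summed to 3768, 2002 and 3348 CPM, which overlaps the controls, and their part in the difference was not tested.

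The other 4 SULT genes did not pass. SULT1B1, which sulfates phenols and thyroid hormones and lies beside SULT1E1 on the chromosome, measured 40.3, 6.25 and 60.3 CPM in the control and 19.3, 15.1 and 10.5 CPM in the Oxy@Lipo/Gel replicates (edgeR adjusted p = 0.342). Its groups overlap, since control replicate 2, the highest library for SULT1E1, was the lowest for SULT1B1. SULT4A1, known from brain, was highest in control replicate 3 (7.56 CPM against 1.57 and 0.204), the library with thyroid markers, whose part in this was not tested. SULT1C4 measured 1.22 ± 0.192 and 1.80 ± 0.287 CPM, with groups that did not overlap and a higher Oxy@Lipo/Gel level. SULT2B1, a cholesterol and hydroxysteroid sulfotransferase, had 13, 0 and 18 counts in the control and 25, 10 and 10 in the Oxy@Lipo/Gel replicates.

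**Figure D3:**
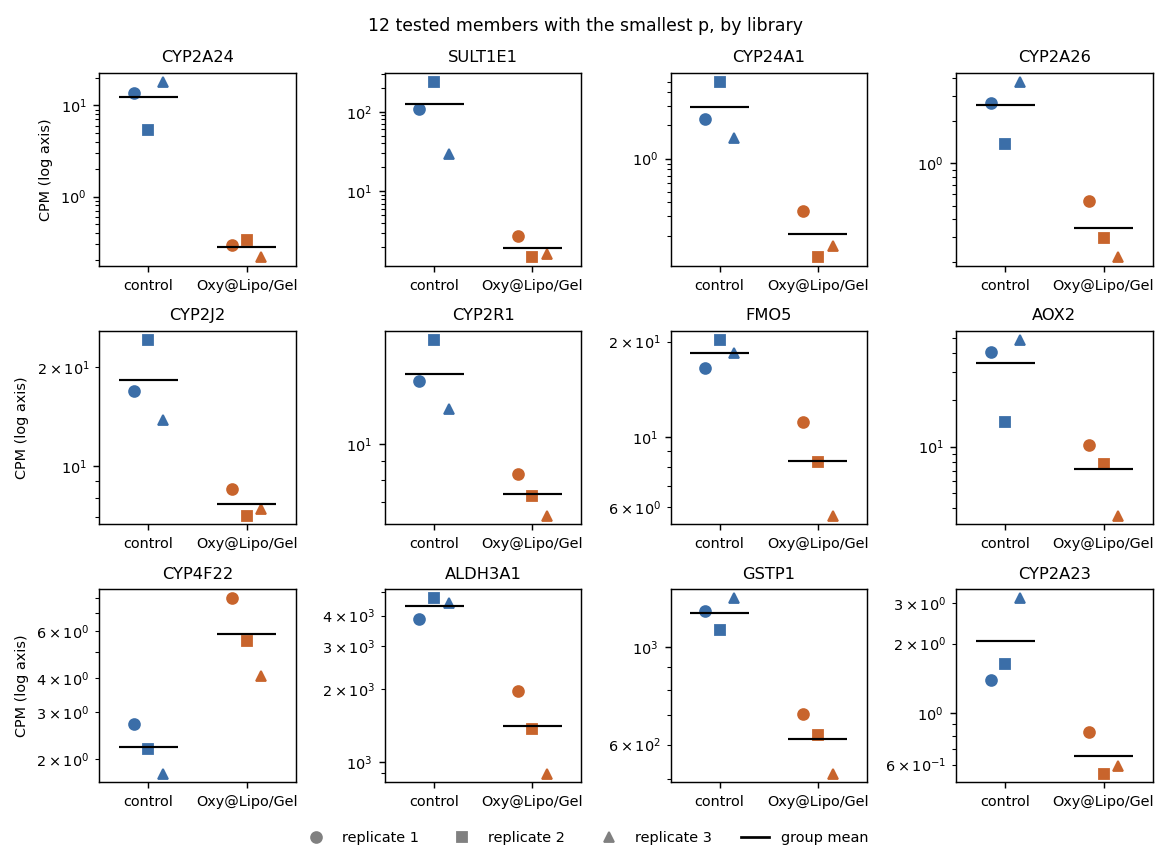
CPM of the 12 tested members with the smallest p in each of the 6 libraries, on logarithmic y axes that differ between panels; each symbol is a replicate and the line is the group mean. Groups do not overlap in any of these panels, and CYP4F22 is the single panel with the higher values in the Oxy@Lipo/Gel group.

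CYP2 was the family with the most members that were lower. P450s of this family are haem enzymes of the endoplasmic reticulum that oxidise drugs, odorants and fatty acids. Of 19 CYP2 genes 17 were tested, 1 was called lower, 0 higher and 16 did not pass. Fold changes lay below 0 for 15 and above 0 for 2 (14 and 3 with median-of-ratios size factors), with a median of -1.06. Of all tested genes 53.0% lay below 0. For 8 CYP2 genes the groups did not overlap, with the lower values under Oxy@Lipo/Gel, beside 17.7% of all tested genes.

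CYP2A enzymes include the nicotine and coumarin hydroxylases of human liver and airway. CYP2A24 measured 13.6, 5.43 and 18.0 CPM in the control replicates and 0.291, 0.337 and 0.214 CPM in the Oxy@Lipo/Gel replicates, from 312, 80 and 379 counts against 7, 8 and 4. Its Oxy@Lipo/Gel values were close together and all control values were 5.43 CPM or more. CYP2A24 fell by 5.42 ± 0.56 as a log2 fold change (edgeR adjusted p = 0.0257). CYP2A26 measured 2.65, 1.36 and 3.76 against 0.540, 0.295 and 0.214 CPM (log2 fold change -2.86 ± 0.54, edgeR adjusted p = 0.0611). CYP2A23 measured 1.39, 1.63 and 3.14 against 0.830, 0.548 and 0.590 CPM (edgeR adjusted p = 0.109). Neither passed in edgeR, though neither had overlapping groups, and DESeq2 called both (adjusted p = 0.000192 and 0.0234). CYP2A13 had the highest level of the 4 per length, 78.9 ± 45.6 FPKM in the controls against 6.72 ± 3.93 FPKM for CYP2A24. This gene, whose human form acts in the respiratory tract and activates a tobacco nitrosamine, measured 136, 65.7 and 201 against 87.4, 67.2 and 35.3 CPM with overlapping groups (edgeR adjusted p = 0.233). CYP2A genes resemble each other in sequence, so the split of reads among the 4 is uncertain.

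Within the controls CYP2A24, CYP2A26 and CYP2A13 were lowest in replicate 2, the library with the fewest multiciliated transcripts. SCGB1A1, the defining club-cell gene, likewise measured 307, 20.8 and 408 CPM in the controls and 33.2, 81.4 and 45.4 CPM in the Oxy@Lipo/Gel libraries, with groups that overlap. The 9 club and goblet markers summed to 17049, 2575 and 14659.7 CPM and 10462, 13451 and 40938 CPM, most of it SCGB3A1. Besides SCGB1A1, TFF3 and SPDEF had lower means in the Oxy@Lipo/Gel group. SCGB3A1, MUC5AC, MUC5B, BPIFB1, BPIFA1 and AGR2 had higher means. Of the list, 1 gene was called, BPIFB1, which was higher (116 ± 62.5 and 1318 ± 195 CPM, edgeR adjusted p = 0.0383). The part of these markers in the CYP2A24 difference was not tested. In the same order of libraries CYP2A24 measured 13.6, 5.43 and 18.0 CPM in the controls and 0.291, 0.337 and 0.214 CPM in the Oxy@Lipo/Gel group.

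CYP2J2 and CYP2R1 varied less within the Oxy@Lipo/Gel group than within the controls. CYP2J2, which forms epoxides of arachidonic acid, measured 16.9, 24.1 and 13.8 CPM in the control and 8.55, 7.08 and 7.40 CPM in the Oxy@Lipo/Gel replicates (log2 fold change -1.25 ± 0.25, edgeR adjusted p = 0.0681). CYP2R1, a vitamin D 25-hydroxylase, measured 14.7, 18.9 and 12.4 and 8.30, 7.25 and 6.43 CPM (edgeR adjusted p = 0.0772). Both had groups apart from each other and did not pass in edgeR, while DESeq2 called both (adjusted p = 0.000852 and 0.00151). CYP2W1 was high in control replicate 2, with 21.9, 114 and 25.2 CPM in the controls and 20.1, 7.17 and 11.5 CPM in the Oxy@Lipo/Gel group. CYP2G2, of a subfamily known from olfactory mucosa, measured 5.15 ± 0.960 and 2.24 ± 0.971 CPM, and CYP2C19 1.65 ± 0.813 and 0.562 ± 0.174 CPM. Both were without overlap and did not pass in edgeR. DESeq2 called CYP2G2 and CYP2W1 (adjusted p = 0.0403 and 0.0467).

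CYP2F1, a lung P450 that activates naphthalene, was the most abundant CYP2 gene per length, with 119 ± 15.1 FPKM in the control group and 83.3 ± 25.0 FPKM in the Oxy@Lipo/Gel group. Its CPM values were 611, 839.9 and 761 against 619, 442 and 426 (edgeR adjusted p = 0.244), and Oxy@Lipo/Gel replicate 1 lay inside the control range. CYP2S1, a P450 of epithelia, measured 2.25 ± 1.13 and 1.60 ± 0.595 CPM and overlapped. The members above 0 were CYP2B6, which was 0.272 CPM in control replicate 2 and 2.52 and 3.23 CPM in the other controls, and CYP2U1, a fatty acid hydroxylase, at 28.1, 9.17 and 27.1 and 28.4, 30.5 and 31.9 CPM. For CYP2U1 the groups just fail to overlap, and control replicate 2 stands apart. CYP2C18, CYP2C76, CYP2D6 and CYP2D8 had fold changes between -0.31 and -0.02 on the log2 scale. CYP2C8, too low to be tested, had 1, 0 and 6 counts in the control and 7, 5 and 5 in the Oxy@Lipo/Gel libraries.

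CYP1 and CYP3 enzymes are the textbook P450s of induction by aromatic hydrocarbons and of hepatic drug clearance. They were scarce here except for CYP3A5, which had a mean of 7.05 FPKM over the 6 libraries. CYP1A1 had 0, 0 and 1 counts in the control and 0, 6 and 3 counts in the Oxy@Lipo/Gel replicates, and CYP3A4 had 1, 0 and 2 and 4, 4 and 4. Both are at or near the level of 3 counts per library, and neither was tested. CYP1B1, which hydroxylates oestrogens, measured 0.522, 2.38 and 2.95 and 1.74, 4.00 and 2.57 CPM (edgeR adjusted p = 0.662). CYP3A5 measured 17.6, 8.01 and 12.2 and 20.8, 13.2 and 10.5 CPM (edgeR adjusted p = 0.739), and the sign of its fold change turned when control replicate 2 was left out, and when Oxy@Lipo/Gel replicate 1 was.

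CYP4 enzymes hydroxylate fatty acids and eicosanoids. Of 10 genes 8 were tested and 0 passed, with 5 below 0, 3 above 0 and a median of -0.22. CYP4F22, which makes the omega-hydroxylated acyl chains of skin ceramides, had the smallest p of the members that were higher, with 2.70, 2.17 and 1.76 CPM in the control and 7.97, 5.52 and 4.08 CPM in the Oxy@Lipo/Gel replicates (log2 fold change 1.40 ± 0.34, edgeR adjusted p = 0.0972). CYP4F3, the leukotriene B4 omega-hydroxylase, measured 2.44, 0.611 and 2.71 against 0.664, 0.295 and 0.161 CPM, and control replicate 2 fell just under the highest Oxy@Lipo/Gel value. DESeq2 called CYP4F22 and CYP4F3 (adjusted p = 0.00297 and 0.0330). CYP4F genes are close relatives, so their shares of the reads are uncertain. CYP4B1, an airway P450, measured 528 ± 135 and 380.4 ± 94.6 CPM (edgeR adjusted p = 0.384), and CYP4X1 measured 49.8 ± 20.9 and 22.4 ± 7.27 CPM with overlapping groups. CYP4F57, CYP4F11, CYP4F12 and CYP4V2, an ocular fatty acid hydroxylase, had fold changes from -0.23 to 0.84 on the log2 scale, and the groups did not overlap for CYP4F57, which was higher, or CYP4V2, which was lower.

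Among the sterol, vitamin and steroid hydroxylases 9 of 12 were tested, 1 was called lower, 0 higher and 8 did not pass, with 3 below 0 and 6 above. CYP24A1, the mitochondrial 24-hydroxylase that degrades active vitamin D and is a target of the vitamin D receptor, measured 2.31, 4.96 and 1.52 CPM in the control and 0.332, 0.126 and 0.161 CPM in the Oxy@Lipo/Gel replicates. These are 53, 73 and 32 counts against 8, 3 and 3, and the groups lie apart. CYP24A1 fell by 3.76 ± 0.63 as a log2 fold change (edgeR adjusted p = 0.0479). The call was narrow: the adjusted p was 0.0517 with median-of-ratios size factors, and 0.0595 without control replicate 2, over a range of 1.09e-05 to 0.239 across alternatives.

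The vitamin D activating enzymes did not pass. CYP27B1, the 1-alpha-hydroxylase, measured 7.79, 14.5 and 4.57 against 4.77, 3.08 and 4.08 CPM (edgeR adjusted p = 0.189), with the same order among the controls as CYP24A1. CYP27A1, a sterol 27-hydroxylase, measured 74.3 ± 34.7 and 76.2 ± 8.62 CPM. VDR, the vitamin D receptor, named after its values were seen, measured 10.1, 13.9 and 5.38 and 13.4, 8.05 and 6.27 CPM (edgeR adjusted p = 0.929). The basal-cell markers, also highest in control replicate 2, are given above, and their part in the CYP24A1 difference was not tested.

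Retinoic acid is cleared by CYP26 enzymes. CYP26A1 measured 4.13, 17.9 and 9.04 and 30.7, 10.9 and 15.6 CPM and CYP26B1 3.09, 3.19 and 12.9 and 2.62, 6.70 and 6.01 CPM, both with overlapping groups (edgeR adjusted p = 0.407 and 0.795). Genes of steroid synthesis were low. CYP11A1, the side-chain cleavage enzyme, measured 0.522 ± 0.501 and 1.08 ± 0.518 CPM, CYP17A1 4.91 ± 0.858 and 5.26 ± 1.37 CPM, and CYP21A2 had 4, 8 and 8 and 8, 14 and 4 counts. CYP39A1, an oxysterol 7-alpha-hydroxylase, measured 19.4 ± 5.44 and 28.6 ± 6.26 CPM (edgeR adjusted p = 0.275), and CYP46A1, the cholesterol 24-hydroxylase, 7.42 ± 1.15 and 9.11 ± 1.56 CPM.

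Flavin monooxygenases oxidise soft nitrogen and sulfur centres of amines and thioethers. All 5 FMO genes had fold changes below 0, with a median of -1.14, and 0 passed. For 3 of them the groups did not overlap, beside 17.7% of all tested genes in this direction. FMO2, the lung form, measured 644, 1104 and 348 CPM in the control and 288, 159 and 176 CPM in the Oxy@Lipo/Gel replicates (log2 fold change -1.75 ± 0.47, edgeR adjusted p = 0.114). Control replicate 2 was highest and control replicate 3 lay closest to the highest Oxy@Lipo/Gel library. FMO5 was steadier, with 16.5, 20.2 and 18.5 and 11.1, 8.35 and 5.63 CPM (log2 fold change -1.13 ± 0.27, edgeR adjusted p = 0.0956). DESeq2 called FMO2 and FMO5. FMO1 measured 4.24 ± 2.47 and 1.92 ± 0.401 CPM, and FMO4 7.85 ± 3.84 and 7.55 ± 2.68 CPM, with overlap in each.

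Aldehyde oxidases are molybdenum flavoenzymes that oxidise aldehydes and nitrogen heterocycles. Both AOX members had groups apart from each other, as did 17.7% of all tested genes in this direction, and neither passed in edgeR. AOX2, known from olfactory mucosa in mouse, measured 40.6, 14.5 and 48.4 against 10.3, 7.67 and 3.59 CPM (log2 fold change -2.26 ± 0.55, edgeR adjusted p = 0.0964). AOX4, known from the Harderian gland in mouse, measured 142, 323 and 69.4 against 59.7, 41.6 and 27.9 CPM (log2 fold change -2.05 ± 0.59, edgeR adjusted p = 0.124). DESeq2 called both AOX2 and AOX4 (adjusted p = 0.0024 and 0.0103). These neighbours differed among the controls: AOX4 was highest in control replicate 2, which was the lowest control for AOX2.

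Aldehyde dehydrogenases turn aldehydes into acids. All 19 ALDH genes were tested and 0 passed. Below 0 were 10 (52.6%, beside 53.0% of all tested genes) and above 0 were 9. Their median was -0.11, which turned to 0.032 without control replicate 2 and to 0.013 without control replicate 3. ALDH3A1 measured 3884, 4715 and 4512 CPM in the control and 1954, 1365 and 894 CPM in the Oxy@Lipo/Gel replicates. The controls were close together and all above the Oxy@Lipo/Gel libraries (4370.5 ± 433 against 1404 ± 531 CPM), and the log2 fold change was -1.64 ± 0.42 (edgeR adjusted p = 0.104, DESeq2 adjusted p = 0.000105). ALDH3A1 was highest in control replicate 2, where multiciliated markers summed to 939 CPM. ALDH1A1 measured 2524, 910.4 and 3435 against 1854, 1468 and 767 CPM (edgeR adjusted p = 0.470). In ALDH1A1 control replicate 2 lay below 2 of the Oxy@Lipo/Gel libraries, so the groups overlap.

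ALDH3B1 and ALDH3B2, which act on medium and long aldehydes, also had their lowest control value in replicate 2. For ALDH3B1 the levels were 232, 73.5 and 329 and 201, 164 and 99.9 CPM, and for ALDH3B2 15.1, 3.39 and 23.3 and 4.44, 4.09 and 2.47 CPM. DESeq2 called ALDH3B2 (adjusted p = 0.0407). ALDH1A3, which also makes retinoic acid, was highest in control replicate 2 (58.1, 143 and 57.2 against 68.4, 47.5 and 83.4 CPM, edgeR adjusted p = 0.622), and without that library its log2 fold change turned to 0.20. ALDH7A1, of lysine breakdown, measured 88.6 ± 18.9 and 56.6 ± 8.50 CPM with groups apart (edgeR adjusted p = 0.147).

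ALDH1B1, a mitochondrial acetaldehyde dehydrogenase, measured 4.31, 2.10 and 3.19 CPM in the control and 5.02, 9.78 and 9.76 CPM in the Oxy@Lipo/Gel replicates (log2 fold change 1.35 ± 0.39, edgeR adjusted p = 0.126, called by DESeq2). ALDH1L2, the mitochondrial formyltetrahydrofolate dehydrogenase, measured 2.63 ± 0.668 and 4.95 ± 1.84 CPM, and ALDH8A1 0.597 ± 0.237 and 1.34 ± 0.368 CPM. Groups did not overlap for these 3 genes or for ALDH18A1, an enzyme of proline synthesis (38.1, 34.7 and 30.3 against 40.3, 40.9 and 38.8 CPM). ALDH1L1, the cytosolic form, was highest in control replicate 3 (26.5 CPM against 5.22 and 2.92), where 8 adipocyte markers summed to 531 CPM against 58.4 CPM or less in the other controls. Among the Oxy@Lipo/Gel libraries ALDH1L1 was highest in replicate 2, as were these markers (118, 607 and 159.8 CPM), whose part was not tested. ALDH2, the main acetaldehyde dehydrogenase, measured 366 ± 110.5 and 276 ± 36.5 CPM, and ALDH5A1, ALDH9A1 and ALDH16A1 had fold changes between -0.13 and 0.03 on the log2 scale. ALDH1A2, another retinal dehydrogenase, ALDH3A2, ALDH4A1 and ALDH6A1 ranged from -0.48 for ALDH4A1 to 0.91 for ALDH1A2, with overlap in each.

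Glutathione transferases join glutathione to electrophiles. Of 9 GST genes 8 lay below 0 and 1 above, beside 53.0% of all tested genes below 0. The GST median was -0.40, and 0 passed. GSTP1 measured 1206, 1091 and 1291 CPM in the control and 704, 632 and 515 CPM in the Oxy@Lipo/Gel replicates. All control values were above all others, and the log2 fold change was -0.95 ± 0.25 (edgeR adjusted p = 0.108, DESeq2 adjusted p = 0.000124). GSTA4, which clears the lipid peroxidation product 4-hydroxynonenal, measured 15.0, 22.5 and 17.1 and 7.93, 9.65 and 13.4 CPM, GSTM3 11.7, 12.1 and 14.2 and 5.40, 8.35 and 10.2 CPM, both without overlap (edgeR adjusted p = 0.147 and 0.204). GSTM5 was the one member above 0, at 108 ± 43.0 and 146 ± 23.3 CPM, and GSTK1, a mitochondrial and peroxisomal form, measured 93.9 ± 2.72 and 81.7 ± 3.73 CPM. GSTA5 measured 277, 206 and 142 against 195, 100.4 and 46.3 CPM with a wide spread in the second group. GSTO1, GSTO2 and GSTZ1 lay between -0.40 and -0.17 on the log2 scale and overlapped. GSTCD measured 5.37 ± 0.302 and 6.30 ± 0.308 CPM, and FMOD 21.9 ± 14.4 and 20.2 ± 2.92 CPM; neither passed. GSTA and GSTM genes have close relatives, so their counts are uncertain. GSTA1 and AOX1 were not analysed here.

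UDP-glucuronosyltransferases attach glucuronic acid. UGT1A transcripts share their last exons in human, so the split of reads among them is uncertain. UGT1A6, of phenol glucuronidation, measured 5.00, 12.6 and 4.61 CPM in the control and 3.90, 0.969 and 1.88 CPM in the Oxy@Lipo/Gel replicates (edgeR adjusted p = 0.178), and UGT1A8 measured 4.66, 7.94 and 2.38 and 4.90, 1.81 and 1.55 CPM (edgeR adjusted p = 0.440). In both, control replicate 2 was the highest library and neither passed. UGT1A3 and UGT1A9 had 9 and 9 counts over the control group and 4 and 15 over the Oxy@Lipo/Gel group and were not tested. CYP1D1, CYP3A7, CYP4F2, CYP4F8, CYP26C1 and CYP27C1 were likewise among the 13 members not tested.

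Several members lie side by side on the chromosome in the reference table of assembly T2T-MMU8v2.0, which was used for gene order only. In the CYP2 cluster the order was CYP2A26, CYP2A24, CYP2A23, CYP2B6, CYP2G2, CYP2F1 and CYP2S1, and the log2 fold changes ran from -5.42 for CYP2A24 to 0.87 for CYP2B6. Levels per length within the cluster ran from 0.443 ± 0.239 FPKM for CYP2A26 to 119 ± 15.1 FPKM for CYP2F1 in the controls. In the FMO cluster FMO2 and FMO1 lay at -1.75 and -1.14 and FMO4 at -0.06. SULT1E1 lies between SULT1B1 and the casein genes, where CSN3, the kappa-casein gene, and ODAM, also one of the gland markers, were called higher (both named after their values were seen; edgeR adjusted p = 0.0274 and 0.0409). Of the 93 members, 84 were found in this table by symbol.

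**Figure D4:**
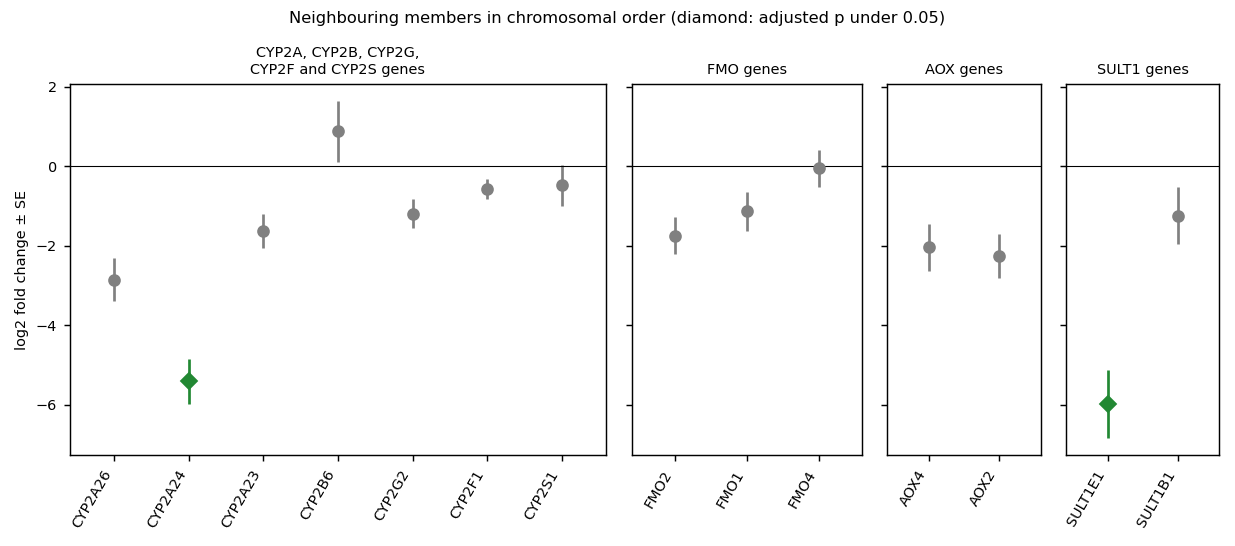
Log2 fold change ± SE of neighbouring members, in the gene order of the reference assembly from left to right (genes with no fold change left out), for the CYP2, FMO, AOX and SULT1 clusters; diamonds mark an adjusted p under 0.05. CYP2A24 at -5.42 and SULT1E1 at -5.99 stand below their neighbours.

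Libraries of a group differed from each other, and members differed in which library stood out. Control replicate 2 was the lowest control for 33 of 80 tested members, the highest for 34 and in between for 13. Over all tested genes it was the lowest control for 37.7% and the highest for 44.2%. Its level was under 0.5 of the mean of the other 2 controls for 21 members and over 2 times that mean for 12. For neither count is the share of all tested genes given here, so neither is read as a trait of the members. Among the first were SULT1B1, ALDH3B1, ALDH1A1, CYP2A24, AOX2 and CYP2U1, with ratios of 0.124, 0.262, 0.306, 0.344, 0.325 and 0.332. Among the second were CYP2W1, SULT1E1, AOX4, UGT1A6, CYP24A1 and FMO2, from 4.84 for CYP2W1 to 2.23 for FMO2. That library had 939 CPM of multiciliated and 11945 CPM of basal-cell markers, the lowest and the highest of all 6. In the Oxy@Lipo/Gel group, replicate 1 was highest for 54 of 80 members and replicate 3 lowest for 43. Over all tested genes the same held for 38.8% and 39.5%. Smooth muscle markers there summed to 1813, 15315 and 20615 CPM, and their part in this order was not tested.

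**Figure D5:**
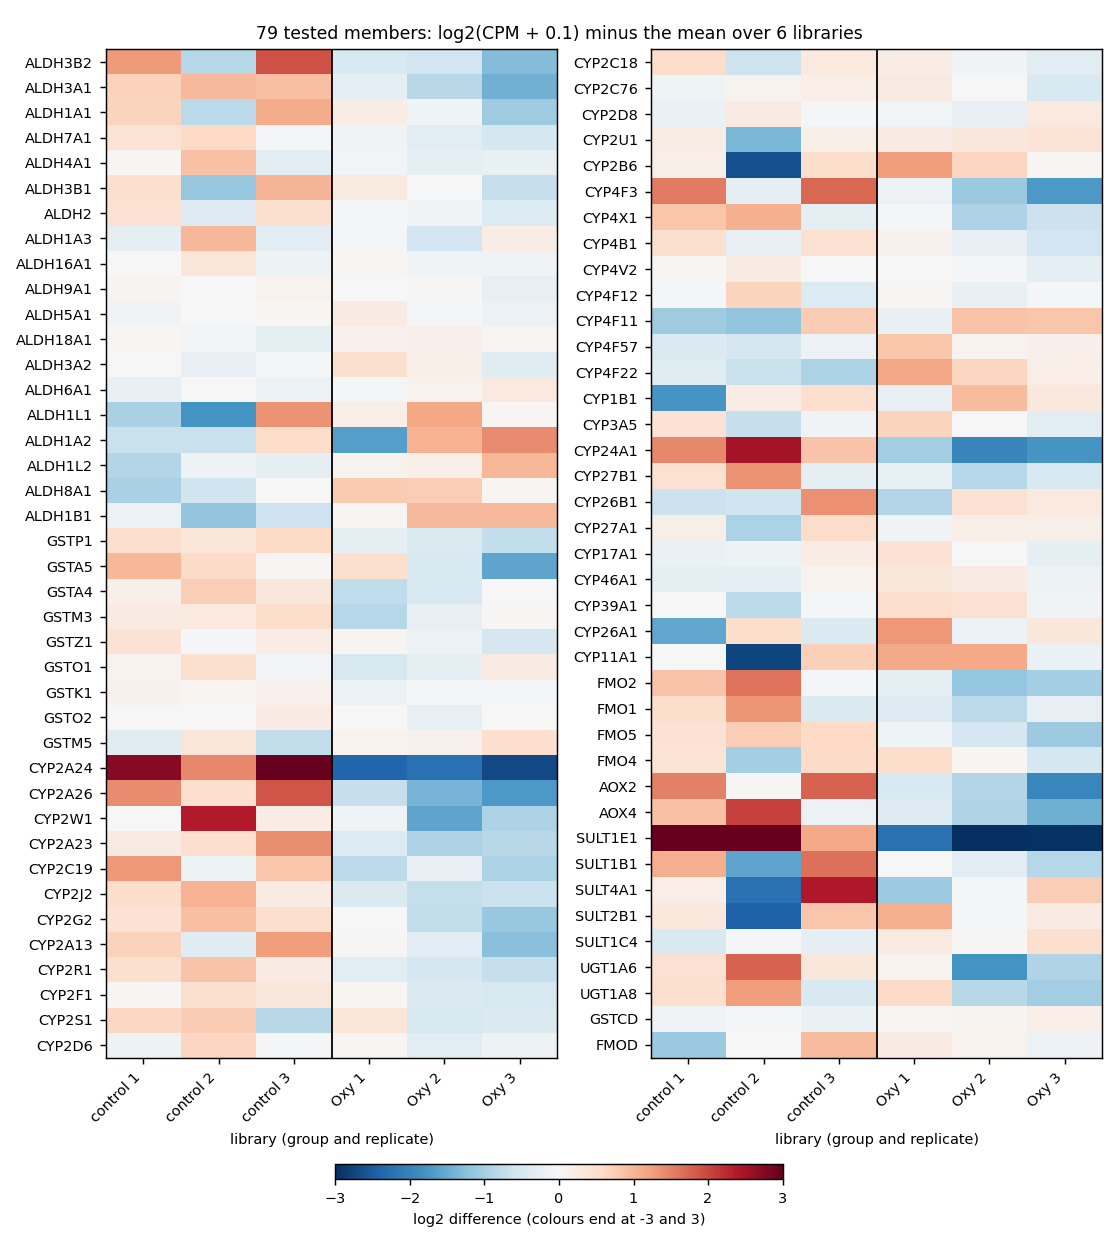
Heat map of 79 tested members (rows) in the 6 libraries (columns; Oxy stands for Oxy@Lipo/Gel), as log2(CPM + 0.1) minus the mean over the 6 libraries, with red above and blue below that mean. CYP2A24 and SULT1E1 are red in all 3 control libraries and blue in all 3 others, and control 2 is blue for CYP2B6, CYP11A1 and SULT2B1 and red for CYP2W1, FMO2 and UGT1A6.

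Partner genes of these enzymes were followed in 6 lists, beside 53.0% of all tested genes with a fold change below 0. Of xenobiotic receptors and their partners 10 of 12 were tested and 0 passed, with 8 below 0 and a median of -0.35. AHR, the receptor of aromatic hydrocarbons, measured 36.0 ± 12.2 and 32.8 ± 5.15 CPM, and its repressor and target AHRR 1.83 ± 0.385 and 2.02 ± 0.546 CPM. NFE2L2, which encodes the stress regulator NRF2, its inhibitor KEAP1 and RXRA had log2 fold changes of -0.75, -0.48 and -0.42 (edgeR adjusted p = 0.129, 0.130 and 0.151). Of electron donors and haem genes 4 of 7 were tested and 0 passed. HMOX1, haem oxygenase, had a log2 fold change of -1.11, FDX1 0.11 and FDXR 0.04.

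Other phase I and II enzymes were tested for 23 of 36, and 0 passed, with 17 below 0 and 6 above. NNMT, which methylates nicotinamide, measured 9.75, 27.4 and 15.1 CPM in the control and 1.74, 3.92 and 2.04 CPM in the Oxy@Lipo/Gel replicates (log2 fold change -2.75 ± 0.50, edgeR adjusted p = 0.0565). ADH7, the alcohol and retinol dehydrogenase of upper digestive and airway epithelium, measured 779, 510.5 and 918 and 320.0, 234 and 145 CPM (edgeR adjusted p = 0.0856). Neither passed, though the groups lie apart, and HNMT, which methylates histamine, had an adjusted p of 0.104 in edgeR. Of efflux and uptake transporters 17 of 20 were tested, 1 was called lower and 0 higher. SLCO1A2, an uptake carrier of bile acids and steroid conjugates, fell from 31.1 ± 9.08 to 8.71 ± 2.63 CPM (edgeR adjusted p = 0.0498), a call that ended with median-of-ratios size factors (adjusted p = 0.0545). SLC22A3, an organic cation carrier, measured 5.45 ± 1.24 and 41.8 ± 30.6 CPM, and SLC22A5, the carnitine carrier, had a log2 fold change of -0.61 (edgeR adjusted p = 0.0714 and 0.0906).

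Genes of steroid activation and steroid receptors were tested for 24 of 28, and 0 passed, with 16 below 0 and 8 above. HSD17B7 and HSD17B10, of steroid and fatty acid metabolism, had log2 fold changes of -0.58 and -0.43 (edgeR adjusted p = 0.117 and 0.134). ESR1, the oestrogen receptor for the substrate of SULT1E1, measured 1.87 ± 1.22 and 1.84 ± 0.484 CPM. Of retinoid-handling genes 19 of 21 were tested, 1 was called higher and 1 lower. DHRS3, which reduces retinal back to retinol, fell from 298 ± 49.3 to 132 ± 3.56 CPM (edgeR adjusted p = 0.0433). RARRES1, a retinoic acid-responsive gene, rose from 26.5 ± 11.3 to 194 ± 59.3 CPM (edgeR adjusted p = 0.0367). RDH13, a retinol dehydrogenase of mitochondria, had a log2 fold change of -0.99 and did not pass. DHRS3, RARRES1 and SLCO1A2 each lost their call when dropping replicate 1 or 3 of the controls or replicate 2 or 3 of the Oxy@Lipo/Gel group, SLCO1A2 and DHRS3 also without control replicate 2, and DHRS3 also without Oxy@Lipo/Gel replicate 1.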

How the data were processed

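RNA of tracheal tissue was measured in 6 libraries, 3 per group. Per the labels' protocols, RNA was poly(A)-selected, libraries were strand-specific and reads paired. The aligner, counter, annotation and strand setting were not given in the sources used here, and overlapping antisense genes may share reads. The builds GRCm38, rheMac8 and Mmul_8.0.1 stand in the submitters' processing notes without a role. The authors deposited whole-number counts per gene and, per the file headers, FPKM. For all 17796 genes with at least 5 counts per library, counts and FPKM gave 1 whole gene length (within 0.01 base), so FPKM is no independent measurement.

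Counts were tested with edgeR 4.0.16 (R 4.3.3), quasi-likelihood F test, TMM factors, filterByExpr (10 counts, total 15), a group term alone and p-values adjusted by Benjamini-Hochberg over 18676 genes at 0.05. The SE is the absolute log2 fold change divided by the square root of F. Totals were 17097177 to 23405294 counts, and 3 counts equal 0.125 to 0.204 CPM, which covers counting error only. Alternatives were median-of-ratios factors, other filters, DESeq2 1.42.0, limma 3.58.1 on log2(FPKM + 1) and log2(FPKM + 0.1), a replicate block and each library left out.

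Members and lists were chosen with earlier results of these data known. Named were called members, the 3 smallest p per prefix and per list, the highest FPKM per prefix and a fixed set. All further genes, such as CYP2R1, CYP2A23, AHR and ESR1, were named after their values were seen. Values of a few members and listed genes are not reported here, though counts and medians include them. No protein or promoter sequence was used here.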

Additional observations from a re-analysis of the deposited data

How the results depend on the processing

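Of the 80 tested members 63 kept 1 sign in every alternative, 43 below and 20 above 0, and SULT1E1, CYP2A24 and CYP24A1 were among them. The count of members called lower, 3, was 18 with DESeq2, which called 2 higher, and 0 with log2(FPKM + 1) and with the replicate block. It ranged from 0 to 3 with 1 library left out, and the members called higher were 0 in each of these. The count of all genes called, 287, was 2492 with DESeq2, 0 with the replicate block (2866 genes and 23 members at an unadjusted p under 0.05) and ranged from 0 to 628 with 1 library left out. Replicate numbers did not pair the libraries: deviations of same-numbered libraries correlated at 0.234, -0.350 and -0.162, and 1 of 3 controls correlated best with its own number. With the block the log2 fold changes of SULT1E1, CYP2A24 and CYP24A1 were -5.59, -5.25 and -3.68 (edgeR adjusted p = 0.141, 0.132 and 0.180). With log2(FPKM + 1) they were -3.87, -2.59 and -0.74, since a pseudocount shrinks low genes. Signs turned for genes that had not passed, with ranges over single libraries left out of -0.60 to 0.20 for ALDH1A3, -0.13 to 0.25 for CYP17A1, -0.10 to 0.54 for CYP3A5, -0.10 to 0.32 for FDXR and -0.087 to 1.07 for SULT2B1. The medians of SULT and ALDH turned to 0.54 without control replicate 3 and to 0.032 without control replicate 2, the ALDH median also to 0.013 without control replicate 3, and the cause was not tested. The filter on low counts left 13 members untested in the main fit. Without this filter all 93 were tested, and the members called were again SULT1E1, CYP2A24 and CYP24A1.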
